A study of Mus musculus with 8 samples.

Results

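The genes described here are 50 genes of DNA replication and of the G1/S transition, the step at which a cell commits to copying its genome. They were chosen by name: a gene entered where a probe set of the array, a group of short probes for 1 transcript, carried its symbol alone in the platform annotation. All 50 were measured, among 12393 genes with such a probe set. The tissue was ventral prostate from FVB males of 8 weeks, with 4 arrays of wild-type tissue and 4 of tissue transgenic for the polyoma virus middle T antigen, called MT. No other allele or agent is named for either group, and the sources used here give no promoter for the transgene. No label says that each array is a different animal, so p-values cover only the scatter among these 8 samples, which could be technical.

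Replication starts at origins, where the origin recognition complex, Cdc6 and Cdt1 load the ring-shaped MCM2-7 helicase in G1. In S phase the helicase unwinds the duplex with Cdc45, DNA polymerase alpha and its primase lay down primers, and polymerases delta and epsilon extend them while tethered to the PCNA clamp, which replication factor C loads. Entry into S phase is driven by D-type cyclins with Cdk4 or Cdk6 and by E-type cyclins with Cdk2. These kinases release E2F transcription factors from the retinoblastoma protein, and E2F sites are known from the promoters of many replication genes. In the adult ventral prostate most luminal cells are secretory and divide rarely.

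Stretches upstream of 7 of the genes are printed to show how E2F-type matches look. Mcm5, Mcm6, Rfc3 and Cdk2, which rose, and Orc3, which did not pass the test, carry a match there, and Pcna, which rose, and Ccnd3, which fell, carry none. They are RefSeq sequences of build GRCm38.p6, written 5′ to 3′ in the direction of the gene. Each is 200 bases outside the annotated gene and upstream of a start site. Ccnd3 had another start site, whose window at chr17:47593217-47593516 held 0 matches and is not printed. Capitals mark matches to TTTCCCGC, TTTCGCGC, TTTGCCGC or TTTGGCGC on either strand. Mcm5 lies at chr8:75109268-75109467 (plus strand), Mcm6 at chr1:128359706-128359905 (minus), Rfc3 at chr5:151651209-151651408 (minus), Cdk2 at chr10:128705052-128705251 (minus), Orc3 at chr4:34614964-34615163 (minus), Pcna at chr2:132253181-132253380 (minus) and Ccnd3 at chr17:47504851-47505050 (plus).
Mcm5: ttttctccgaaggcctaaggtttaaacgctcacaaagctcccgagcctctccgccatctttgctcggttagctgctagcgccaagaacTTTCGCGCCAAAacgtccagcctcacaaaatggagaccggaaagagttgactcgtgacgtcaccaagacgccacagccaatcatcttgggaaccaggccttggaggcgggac
Mcm6: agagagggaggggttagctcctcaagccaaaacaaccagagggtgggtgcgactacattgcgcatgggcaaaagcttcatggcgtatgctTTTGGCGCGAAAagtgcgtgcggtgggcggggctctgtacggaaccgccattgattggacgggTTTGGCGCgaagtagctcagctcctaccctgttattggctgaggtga
Rfc3: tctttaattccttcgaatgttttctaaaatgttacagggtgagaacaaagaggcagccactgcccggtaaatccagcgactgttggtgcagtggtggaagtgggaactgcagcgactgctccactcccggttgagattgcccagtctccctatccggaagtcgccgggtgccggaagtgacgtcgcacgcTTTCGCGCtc
Cdk2: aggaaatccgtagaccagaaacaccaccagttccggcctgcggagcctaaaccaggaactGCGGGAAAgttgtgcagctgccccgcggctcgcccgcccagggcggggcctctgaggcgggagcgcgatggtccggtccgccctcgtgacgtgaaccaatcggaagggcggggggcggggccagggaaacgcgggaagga
Orc3: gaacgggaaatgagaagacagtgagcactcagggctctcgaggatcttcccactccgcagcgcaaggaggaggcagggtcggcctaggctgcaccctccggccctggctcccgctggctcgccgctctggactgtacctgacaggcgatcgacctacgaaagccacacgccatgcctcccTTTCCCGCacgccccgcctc
Pcna: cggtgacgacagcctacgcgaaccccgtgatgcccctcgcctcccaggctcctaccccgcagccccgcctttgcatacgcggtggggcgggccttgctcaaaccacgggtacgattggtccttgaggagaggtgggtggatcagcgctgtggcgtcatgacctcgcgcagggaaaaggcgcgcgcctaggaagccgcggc
Ccnd3: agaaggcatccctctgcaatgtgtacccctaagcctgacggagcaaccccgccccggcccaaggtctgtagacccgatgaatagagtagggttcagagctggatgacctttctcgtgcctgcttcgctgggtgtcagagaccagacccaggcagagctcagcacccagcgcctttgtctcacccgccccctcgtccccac

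In Mcm5 the matches began 153 and 149 bases before the start site and overlapped on opposite strands. Mcm6 had an overlapping pair that began 110 and 106 bases before its start site and another match 47 bases before it. Of the 50 genes, 43 had at least 1 promoter window in the table used, from 250 bases before to 50 after a start site, and 8 of them had more than 1, for 53 windows in all. Ccnd1, Ccnd2, Pole, Rfc2, Prim2, Mcm4 and Ccne2 had none there. An E2F-type match in any of their windows was found for 15 of the 43 genes (34.9%), against 402 of the 9887 tested genes with a window (4.07%). Counted by window, it lay in 15 of 53 (28.3%), against 3.38% over the tested genes. Those genes were Mcm3, Mcm5, Mcm6, Mcm7, Orc1, Orc3, Cdc6, Cdt1, Pola1, Pold1, Pole2, Rfc3, Lig1, Cdk2 and E2f3. By role the match lay in 4 of 6 MCM genes, 4 of 9 origin genes and 3 of 6 polymerase and primase genes, and in 0 of the 5 genes of deoxynucleotide supply. Among those of the 50 with higher values in MT it lay in 10 of 22 (45.5%), against 5.57% of all higher genes with a window. Among those that did not pass the test it lay in 5 of 19 (26.3%), against 3.82%, and among those that fell in 0 of 2. The difference between these shares was not tested. The letters CCAAT, a general promoter element searched on both strands, was found for 25 of the 43 genes (58.1%), against 42.3% of all tested genes with a window. TTTGAA or TTCGAA on either strand, the letters of the cell cycle homology region (CHR) found in many mitotic promoters, was found for 7 of the 43 genes (16.3%), against 17.3%. These letters are descriptions of the windows, and binding of any factor was not measured.

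**Figure D1:**
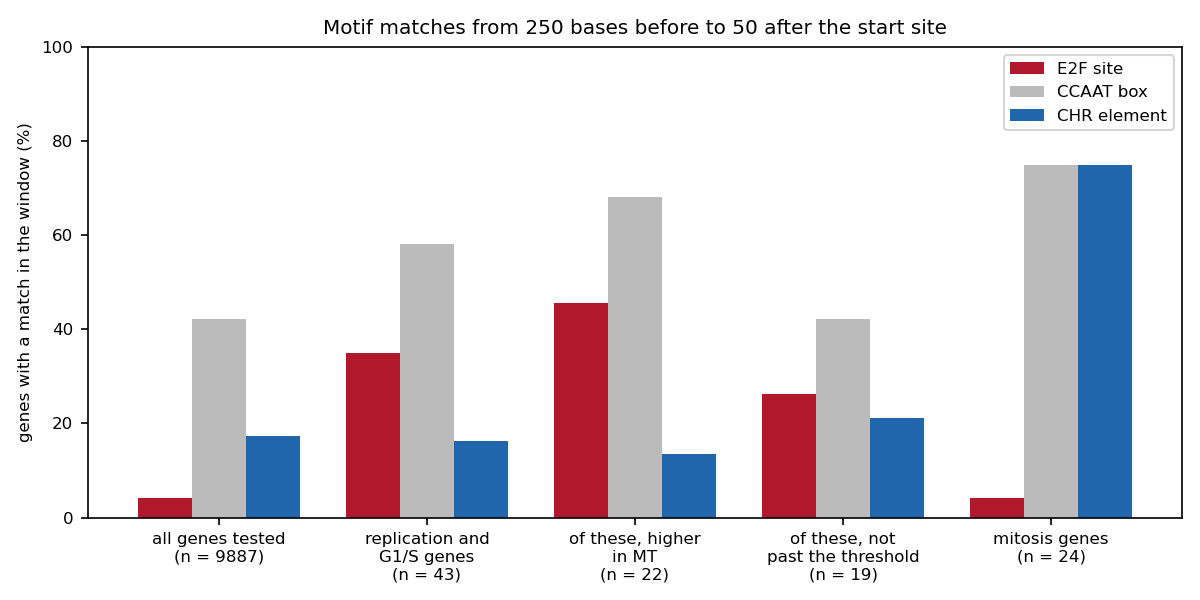
Share of genes, in percent, whose promoter window holds at least 1 match to each motif, for all tested genes, the replication and G1/S genes, subsets of them and the mitosis genes; n is the number of genes with a window. The E2F-type bar reaches 34.9% for the replication and G1/S genes against 4.07% for all tested genes, and the mitosis genes have 75.0% for the CHR element.

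More of these genes were called higher in MT than lower. Of the 50 genes, 27 rose in MT, 3 fell (Rpa3, Ccnd1 and Ccnd3) and 20 did not pass the test, by limma's moderated test with Benjamini-Hochberg adjustment over all 12393 genes at a threshold of 0.05. Among all genes tested, 19.7% rose and 21.3% fell, so that 41.1% changed. The median difference of the 50 genes was 0.25 on the log2 scale, with a range of -0.56 to 2.00, and that of all genes was -0.01. Differences are MT minus wild type, and errors on them are standard errors from the fit, with 4 arrays in each group. Rises of at least 2-fold were found for 3 genes, Mcm5, Mcm6 and Mcm7, against 2.83% of all genes. For 23 of the 50 genes every MT array read above every wild-type array, against 19.7% of all genes, and for 2, Rpa3 and Ccnd3, every MT array read below, against 20.4%. With arrays of the same number treated as pairs, 28 rose and 5 fell, and the share of all genes was not counted in that fit. Mcm10 (adjusted p = 0.0325) and Ccne2 (0.0352) were added to those that rose, E2f1 (0.0067) and Orc4 (0.0486) to those that fell, and Orc6 (0.0797) was lost.

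Markers of several cell types in the tissue differed between the groups as well. Among lists of known markers, secretory genes of the ventral prostate fell in 4 of 4 cases (mean level over the list 12.76 to 13.10 in wild-type arrays and 9.56 to 10.42 in MT arrays), so these markers stood high on all 8 arrays. Luminal keratin and adhesion genes rose in 9 of 9 (10.79 to 10.96 and 11.71 to 11.84). Smooth muscle markers fell in 8 of 8, fibroblast markers in 6 of 7 and basal markers in 4 of 6, and 1 of 8 endothelial markers fell. Of the immune lists, 4 of 9 macrophage markers rose and 1 fell, 3 of 7 T cell markers rose and 1 fell, and 3 of 8 granulocyte and 1 of 6 B and plasma cell markers rose. Over all genes 19.7% rose and 21.3% fell. The endothelial, macrophage and T cell falls and the B and plasma cell rise did not exceed these shares. The macrophage list had mean levels of 6.22 to 6.77 and 6.88 to 7.06, and the granulocyte list 4.56 to 4.67 and 5.29 to 5.66. The median difference was 0.32 over the macrophage list and 0.18 over the granulocyte list. It was 0.17 over the T cell list and 0.55 over the B and plasma cell list. The B and plasma cell list had mean levels of 4.95 to 5.22 in wild-type arrays and 5.64 to 6.41 in MT arrays. MT array 2 was the highest there. Jchain (2.97) was the marker of that list that rose, and 5 of 6 did not pass. In the granulocyte list S100a8 (3.33) and S100a9 (2.72) rose most, and 5 of 8 markers did not pass. Gapdh differed between its 3′ and 5′ probe sets, a sign of RNA quality, by 0.70 ± 0.17 in wild type and 0.51 ± 0.09 in MT (log2, SD, n = 4; two-sided exact permutation p = 0.0857, with 0.0286 the smallest possible). For Actb, the other such control, the gap was 0.91 ± 0.14 in wild type and 0.73 ± 0.12 in MT (p = 0.114 by the same permutation test). The part of these in the results on replication genes was not tested. In bulk tissue, more cells in S phase and more RNA per cell cannot be told apart.

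**Figure D2:**
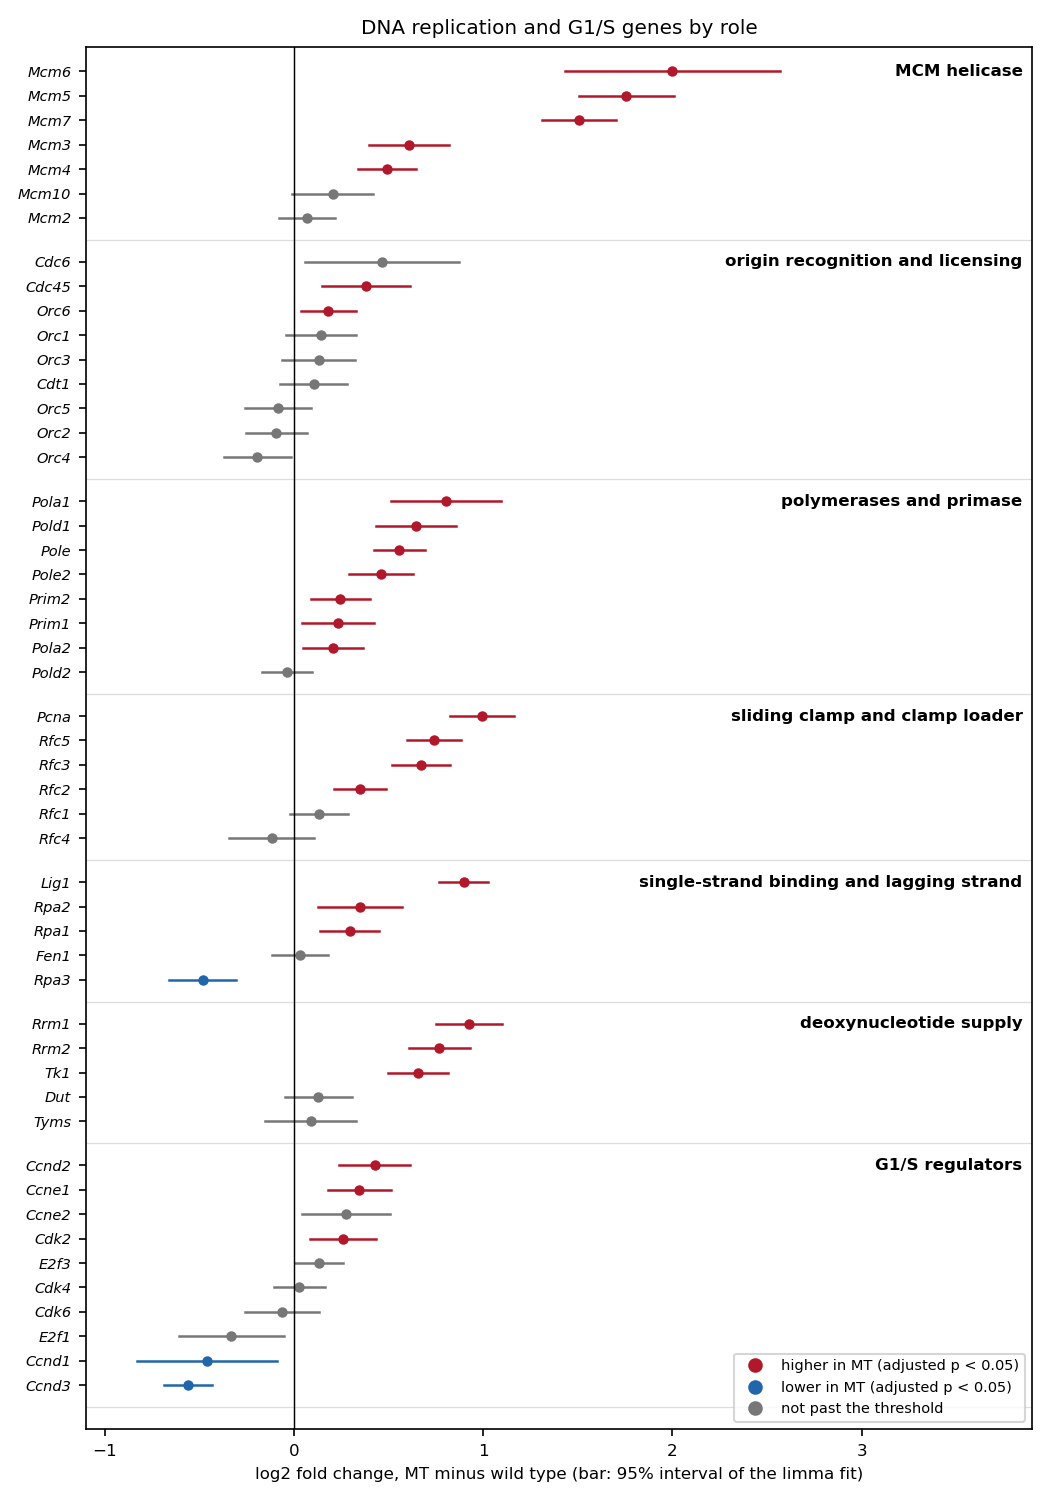
Difference between MT and wild type on the log2 scale for each of the 50 genes, grouped by role; points are estimates, bars are 95% intervals of the limma fit, and colour marks the call at an adjusted p under 0.05. The points of Mcm5, Mcm6 and Mcm7 lie above 1, and those of Rpa3, Ccnd1 and Ccnd3 are the only ones called lower. Readings of Orc1 and Ccne2 were mostly at background in wild type.

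The MCM helicase genes held the 3 largest rises of the 50. Of 7 genes, 5 rose, against 19.7% of all genes, and 2 did not pass, with a median difference of 0.61. The mean level over the 7 ran from 6.21 to 6.51 in wild-type arrays and from 7.18 to 7.39 in MT arrays. Mcm6, a subunit of the ring, read 5.10, 6.37, 5.04 and 6.04 on wild-type arrays 1 to 4 and 7.58, 7.70, 7.49 and 7.80 on MT arrays 1 to 4. Each MT array was above each wild-type array, and wild-type arrays 1 and 3 were lower than arrays 2 and 4. The difference was 2.00 ± 0.26 (adjusted p = 9.27e-05), or 4.00-fold, the largest of the 50 genes. Mcm5, another subunit, read 4.52, 4.39, 4.24 and 4.59 in wild type and 5.88, 6.24, 6.24 and 6.41 in MT, a rise of 1.76 ± 0.11 (adjusted p = 5.63e-07), or 3.38-fold. MT array 1 was the lowest of its group for Mcm5 and still far above the wild-type arrays. Mcm7 read 8.08, 8.09, 7.81 and 8.21 in wild type and 9.49, 9.52, 9.51 and 9.69 in MT, a rise of 1.51 ± 0.09 (adjusted p = 2.98e-07), or 2.84-fold, with no overlap between the groups.

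Mcm3 and Mcm4, which complete the set of ring subunits that rose, did so by less, 0.61 ± 0.10 (adjusted p = 0.000417) and 0.49 ± 0.07 (adjusted p = 0.000186). In both genes the groups did not overlap. Mcm10, a factor that helps activate the helicase, differed by 0.20 ± 0.10 (adjusted p = 0.116, with overlapping groups). Mcm2, the remaining ring subunit, read 7.62, 7.65, 7.86 and 7.69 in wild type and 7.75, 7.76, 7.78 and 7.81 in MT, a difference of 0.07 ± 0.07 (adjusted p = 0.472) with a 95% interval of -0.08 to 0.22. A second probe set for Mcm2 gave another reading, 6.78, 7.0, 6.92 and 6.99 in wild type and 7.47, 7.65, 7.55 and 7.57 in MT, a difference of 0.64 ± 0.07 (adjusted p = 3.53e-05) in the fit over all probe sets. The call for Mcm2 therefore depended on the probe set, of which the one with the higher mean was used throughout.

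Of the 9 genes that mark and license origins, 2 rose (Orc6 and Cdc45) and 7 did not pass, a share near the 19.7% of all genes that rose, with a median difference of 0.13 and mean levels of 5.85 to 6.07 in wild-type arrays and 6.05 to 6.09 in MT arrays. Cdc45, which joins the MCM ring to form the active helicase, read 5.16, 5.50, 5.28 and 5.02 in wild type and 5.58, 5.76, 5.70 and 5.44 in MT. The groups overlapped at MT array 4 and wild-type array 2, and the rise was 0.38 ± 0.11 (adjusted p = 0.0135). With both wild-type array 4 and MT array 2 left out it was 0.26 (adjusted p = 0.0948). Orc6, the smallest subunit of the origin recognition complex, read 6.41, 6.24, 6.28 and 6.38 in wild type and 6.41, 6.55, 6.54 and 6.54 in MT. MT array 1 lay at the level of the wild-type arrays and the other MT arrays lay above them, for a rise of 0.18 ± 0.07 (adjusted p = 0.0481). Leaving out any array but number 1 of either group ended the call (adjusted p 0.0529 to 0.113).

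Cdc6, the ATPase that brings MCM to origins, read 3.07, 3.84, 3.89 and 4.09 in wild type and 4.34, 3.96, 4.21 and 4.25 in MT, and differed by 0.46 ± 0.18 (adjusted p = 0.0654) with a 95% interval of 0.06 to 0.87. Wild-type array 1 was the lowest, and wild-type array 4 lay within the MT range. Without wild-type array 4 the difference was 0.59 (adjusted p = 0.0254). The reading stood at or under the highest bacterial control probe set, which measures RNA absent from mouse tissue, on 2 of 4 wild-type arrays and 0 of 4 MT arrays. Orc1, the subunit that completes the complex in G1, was likewise at that background on 3 of 4 wild-type arrays and 0 of 4 MT arrays, and no difference is given for it (adjusted p = 0.198).

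Orc4 read 7.63, 7.87, 7.83 and 7.65 in wild type and 7.59, 7.65, 7.57 and 7.40 in MT, a difference of -0.19 ± 0.08 (adjusted p = 0.0759), and its groups overlapped. Its other probe sets were called lower, at -0.62 ± 0.10 (adjusted p = 0.000392) and -0.47 ± 0.06 (adjusted p = 9.51e-05). Cdt1, the partner of Cdc6 in loading, differed by 0.10 ± 0.08 (adjusted p = 0.338) on the probe set used and by 0.57 ± 0.11 (adjusted p = 0.00195) on another. Orc2, Orc3 and Orc5 did not pass, with differences from -0.09 (Orc2) to 0.13 (Orc3), and without wild-type array 2 Orc3 was at 0.21 (adjusted p = 0.0350). With probe sets averaged, Orc2 was at -0.23 (adjusted p = 0.0221), and another of its probe sets was called lower, at -0.25 ± 0.08 (adjusted p = 0.02).

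Polymerase and primase genes rose in 7 of 8 cases, against 19.7% of all genes, with a median difference of 0.35. Their mean level ran from 5.72 to 5.85 in wild-type arrays and from 6.10 to 6.19 in MT arrays. Pola1, the catalytic subunit of polymerase alpha that starts each new strand, read 4.72, 4.78, 5.39 and 4.90 in wild type and 5.84, 5.75, 5.82 and 5.59 in MT. Wild-type array 3 stood above the other wild-type arrays and below all MT arrays. Pola1 rose by 0.80 ± 0.13 (adjusted p = 0.000532). Pold1, the catalytic subunit of polymerase delta, read 5.35, 5.12, 5.41 and 5.11 in wild type and 6.04, 5.74, 5.80 and 6.0 in MT, a rise of 0.65 ± 0.10 (adjusted p = 0.000268). Pole, that of polymerase epsilon, read 5.27, 5.12, 5.20 and 5.19 in wild type and 5.75, 5.79, 5.78 and 5.68 in MT, a rise of 0.56 ± 0.06 (adjusted p = 2.75e-05). All 3 catalytic subunits thus rose with no overlap between groups.

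The accessory subunits were more varied. Pole2, the second subunit of polymerase epsilon, rose by 0.46 ± 0.08 (adjusted p = 0.000592). Pola2, Prim1 and Prim2, the other subunits of the alpha-primase complex, rose by 0.21, 0.23 and 0.24 (adjusted p = 0.042, 0.049 and 0.0165). Leaving out any array but wild-type array 3 ended the call of Pola2 (adjusted p 0.0526 to 0.106), and any but wild-type array 2 or MT array 3 that of Prim1 (0.0708 to 0.130). Prim2 lost its call without MT array 4 (0.0542). It gave 0.07 (adjusted p = 0.559) with only probe sets of the unique type, those named with a plain _at suffix. Pold2, the second subunit of polymerase delta, read 7.05, 7.0, 7.07 and 7.06 in wild type and 6.99, 6.96, 6.97 and 7.10 in MT, a difference of -0.04 ± 0.06 (adjusted p = 0.666) whose 95% interval ran from -0.17 to 0.10. Pold1 and Pold2 form 1 enzyme, and the interval of Pold2 lay wholly below the estimate for Pold1; the difference between the subunits was not tested.

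The sliding clamp Pcna, which tethers polymerases to DNA, nearly doubled. It read 9.38, 9.42, 9.14 and 9.45 in wild type and 10.31, 10.36, 10.33 and 10.38 in MT, a rise of 0.99 ± 0.08 (adjusted p = 1.78e-06), or 1.99-fold. The 4 MT arrays spanned a narrow range above all wild-type arrays. Of the 6 clamp and clamp loader genes 4 rose, against 19.7% of all genes, and 2 did not pass. The 6 had a median of 0.51 and mean levels of 6.83 to 6.92 in wild-type arrays and 7.30 to 7.38 in MT arrays. Among the loader subunits, Rfc5 read 6.16, 6.20, 6.17 and 6.25 in wild type and 6.93, 6.82, 6.93 and 7.05 in MT and rose by 0.74 ± 0.07 (adjusted p = 5.28e-06). Rfc3 read 4.99, 4.97, 5.15 and 5.11 in wild type and 5.81, 5.61, 5.74 and 5.76 in MT and rose by 0.67 ± 0.07 (adjusted p = 1.86e-05). Neither gene had overlapping groups, and the same held for Rfc2, which rose by 0.35 ± 0.06 (adjusted p = 0.000932). Rfc1, the large subunit, read 7.83, 7.74, 7.57 and 7.75 in wild type and 7.85, 7.89, 7.79 and 7.90 in MT and differed by 0.13 ± 0.07 (adjusted p = 0.156), with a 95% interval of -0.02 to 0.29. Rfc4 differed by -0.12 ± 0.10 (adjusted p = 0.393), and without wild-type array 1 by -0.22 (adjusted p = 0.0420). Subunits of the loader complex thus had both called rises and intervals that included 0.

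Genes of single-strand binding and of lagging-strand processing had calls in both directions. Of 5 genes, 3 rose, 1 fell and 1 did not pass, beside 19.7% and 21.3% of all genes that rose and fell. The share that fell was thus near that of all genes. The 5 had a median of 0.29 and mean levels of 7.94 to 7.99 in wild-type arrays and 8.14 to 8.20 in MT arrays. Lig1, the ligase that joins Okazaki fragments, read 7.04, 6.99, 6.96 and 7.07 in wild type and 7.87, 7.94, 7.90 and 7.94 in MT and rose by 0.90 ± 0.06 (adjusted p = 5.56e-07), or 1.86-fold. The arrays of each group lay close together, far from the other group. Fen1, the nuclease that trims the flaps of these fragments, read 9.37, 9.45, 9.53 and 9.31 in wild type and 9.50, 9.41, 9.46 and 9.43 in MT and differed by 0.03 ± 0.07 (adjusted p = 0.734), with a 95% interval of -0.11 to 0.18. A second probe set of Fen1 read 6.10, 6.31, 5.91 and 6.31 in wild type and 6.55, 6.62, 6.59 and 6.70 in MT, a difference of 0.46 ± 0.09 (adjusted p = 0.00257).

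Replication protein A coats single-stranded DNA as a trimer, and its subunits differed in direction. Rpa3, the small subunit, read 7.03, 7.11, 7.37 and 7.26 in wild type and 6.77, 6.69, 6.70 and 6.68 in MT and fell, with a difference of -0.48 ± 0.08 (adjusted p = 0.000608). All MT arrays lay below all wild-type arrays. Rpa2, the middle subunit, read 6.37, 6.47, 6.07 and 6.40 in wild type and 6.72, 6.86, 6.55 and 6.57 in MT and rose by 0.35 ± 0.10 (adjusted p = 0.0168). Rpa1, the large subunit, read 9.88, 9.91, 9.74 and 9.90 in wild type and 10.09, 10.13, 10.10 and 10.29 in MT and rose by 0.29 ± 0.07 (adjusted p = 0.00624). The calls of Rpa1 and Rpa2 were not kept when probe sets were averaged (0.04, adjusted p = 0.654, and 0.14, adjusted p = 0.197). Rpa2 was also not called without MT array 2 (0.28, adjusted p = 0.0538). For Rpa1 the second probe set differed by -0.21 ± 0.08 (adjusted p = 0.056).

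**Figure D3:**
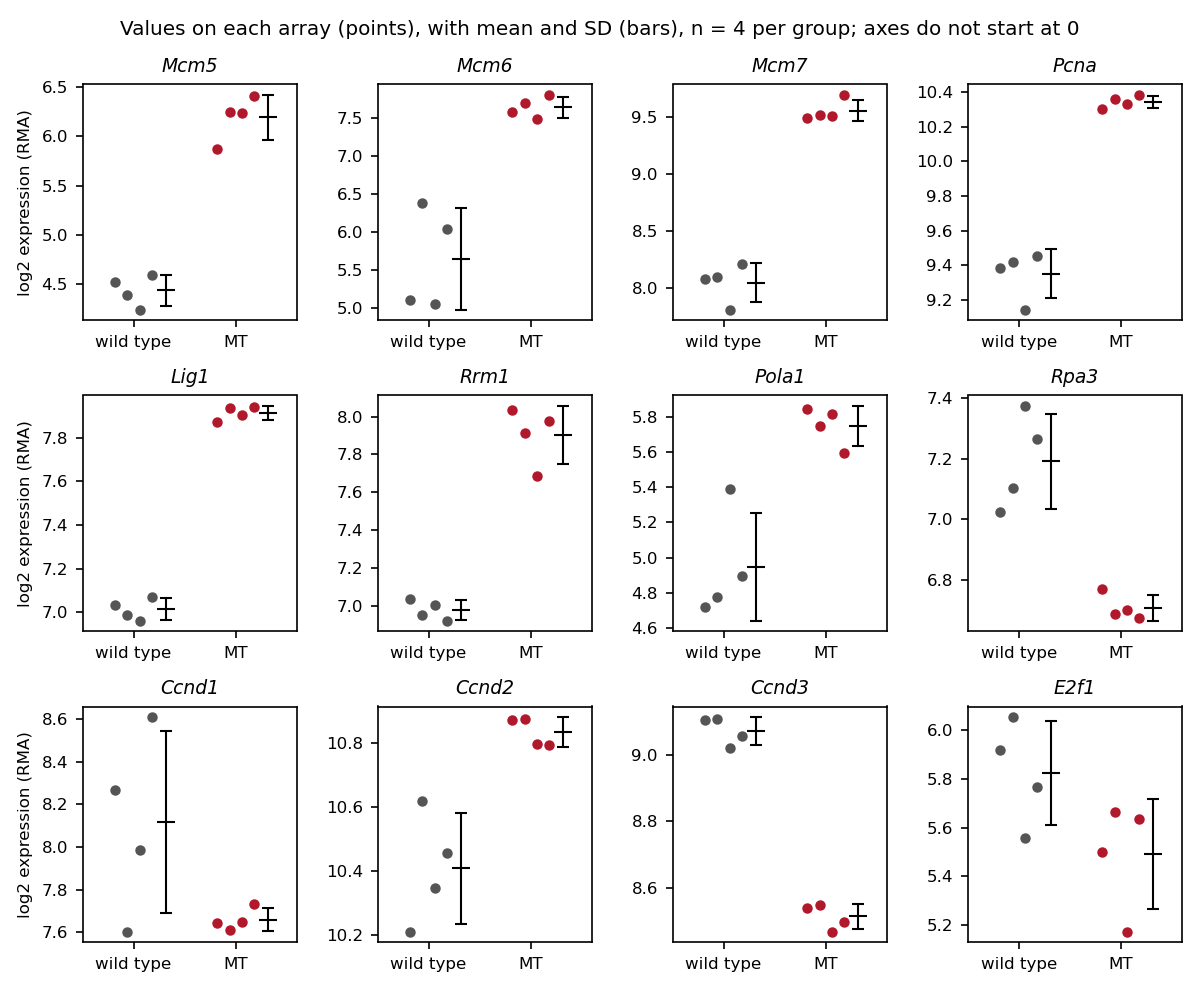
RMA log2 expression on each array (points) with the group mean and SD (bars, n = 4 per group) for genes of the replication and G1/S list; the axes do not start at 0. The MT arrays of Mcm6 lie between 7.49 and 7.80 above wild-type arrays that spread from 5.04 to 6.37, and those of Ccnd3 lie between 8.47 and 8.55 below wild-type arrays at 9.02 to 9.11.

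Of 5 genes for the supply of deoxynucleotides, the building blocks of DNA, 3 rose, against 19.7% of all genes, and 2 did not pass. The median over the 5 was 0.65, and the mean level ran from 5.97 to 6.13 in wild-type arrays and from 6.45 to 6.64 in MT arrays. Rrm1, the large subunit of ribonucleotide reductase, read 7.03, 6.95, 7.01 and 6.92 in wild type and 8.03, 7.91, 7.69 and 7.98 in MT and rose by 0.92 ± 0.08 (adjusted p = 4.68e-06), or 1.90-fold. Rrm2, its small subunit and the one made in S phase, read 7.10, 7.29, 7.25 and 7.42 in wild type and 8.04, 8.04, 8.01 and 8.05 in MT and rose by 0.77 ± 0.07 (adjusted p = 9.87e-06). Tk1, the cytosolic thymidine kinase, read 6.41, 6.20, 6.30 and 6.41 in wild type and 7.08, 6.90, 6.97 and 6.98 in MT and rose by 0.65 ± 0.07 (adjusted p = 2.58e-05). In all 3 genes the groups were apart. Dut, which removes dUTP, read 5.92, 5.85, 5.77 and 6.07 in wild type and 5.98, 6.12, 5.92 and 6.11 in MT and differed by 0.13 ± 0.08 (adjusted p = 0.235), with a 95% interval of -0.05 to 0.31. Tyms, thymidylate synthase, was at bacterial control background on 2 of 4 wild-type arrays and 1 of 4 MT arrays and differed by 0.09 ± 0.11 (adjusted p = 0.563).

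Of the 10 regulators of G1/S, 3 rose, 2 fell and 5 did not pass, shares not far from those of all genes (19.7% and 21.3%), with a median of 0.08 and mean levels of 6.57 to 6.66 in wild-type arrays and 6.58 to 6.69 in MT arrays. The 3 D-type cyclins, which bind Cdk4 and Cdk6 and respond to growth signals, differed among themselves. Ccnd3 read 9.11, 9.11, 9.02 and 9.06 in wild type and 8.54, 8.55, 8.47 and 8.50 in MT and fell, with a difference of -0.56 ± 0.06 (adjusted p = 1.7e-05), so that wild type stood 1.47-fold higher. Its groups lay far apart. Ccnd2 read 10.21, 10.62, 10.35 and 10.46 in wild type and 10.87, 10.88, 10.80 and 10.79 in MT and rose by 0.43 ± 0.09 (adjusted p = 0.00198), with every MT array above every wild-type array. Its 7 probe sets ran from -0.07 to 0.43, and 4 of them were called higher.

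Ccnd1 read 8.27, 7.60, 7.99 and 8.61 in wild type and 7.64, 7.61, 7.65 and 7.73 in MT, and its fall, -0.46 ± 0.17 (adjusted p = 0.0483), was close to the threshold. Wild-type arrays spread widely, from below the MT arrays at array 2 to well above them at array 4, while the MT arrays lay close together (SD 0.43 and 0.05). Leaving out any array but wild-type array 2 ended the call (adjusted p 0.0617 to 0.111). Without wild-type array 4 the difference was -0.29 (adjusted p = 0.103). In the fit over all probe sets, the set used had an adjusted p of 0.0507. Its other probe sets gave -0.49 ± 0.14 (adjusted p = 0.0175), called lower, and -0.32 ± 0.17 (adjusted p = 0.155), not called. Smooth muscle and fibroblast markers also fell between these groups, and their part in Ccnd1 was not tested.

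Ccne1, a cyclin that activates Cdk2, read 5.06, 5.20, 5.04 and 4.98 in wild type and 5.39, 5.54, 5.46 and 5.28 in MT and rose by 0.35 ± 0.08 (adjusted p = 0.00363), with no overlap. Cdk2 itself read 6.10, 5.82, 5.79 and 5.98 in wild type and 6.24, 6.24, 6.10 and 6.14 in MT, overlapping at 6.10, and rose by 0.26 ± 0.08 (adjusted p = 0.0228). Leaving out wild-type array 2 or 3 or MT array 1 or 2 ended the call of Cdk2 (adjusted p 0.0574 to 0.0643). Ccne2 was at bacterial control background on 4 of 4 wild-type and 3 of 4 MT arrays, and no fold is given. Its adjusted p was 0.0599, and 0.0200 without wild-type array 3. Cdk4 read 9.23, 9.20, 9.05 and 9.14 in wild type and 9.18, 9.17, 9.18 and 9.19 in MT and differed by 0.03 ± 0.06 (adjusted p = 0.744), with a 95% interval of -0.11 to 0.16. Cdk6 differed by -0.06 ± 0.09 (adjusted p = 0.612).

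E2f1, the activating E2F whose own promoter is a known E2F target, read 5.92, 6.05, 5.56 and 5.77 in wild type and 5.50, 5.67, 5.17 and 5.63 in MT and differed by -0.33 ± 0.13 (adjusted p = 0.0563), with a 95% interval of -0.61 to -0.05. MT array 3 was the lowest and wild-type array 2 the highest, and the groups overlapped. With numbered pairs the adjusted p was 0.0067, and each MT array was below the wild-type array of its number. Without wild-type array 3 the difference was -0.42 (adjusted p = 0.0216), and without MT array 2 it was -0.39 (0.0472). A second probe set of E2f1 differed by 0.06 ± 0.07 (adjusted p = 0.494). E2f3, another activator, had every MT array above every wild-type array but differed by only 0.13 ± 0.06 (adjusted p = 0.0927).

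The 97 probe sets of the 50 genes showed how far these readings depend on the probes. In a fit over all 20380 single-symbol probe sets 44 of the 97 were called higher, 6 lower and 47 not, against 18.3% higher and 20.1% lower over all. Of the 28 genes with several probe sets, 7 had all of them called the same way and 12 had both called and uncalled sets. Mcm7 was called higher by all 4 of its sets (0.91 to 1.51), and Rrm2 by all 3 (0.54 to 0.77). Sets of the unique type numbered 64, of which 26 were called higher and 6 lower. Sets of other types, with _a, _s or _x before the final _at, numbered 33, of which 18 were called higher.

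**Figure D4:**
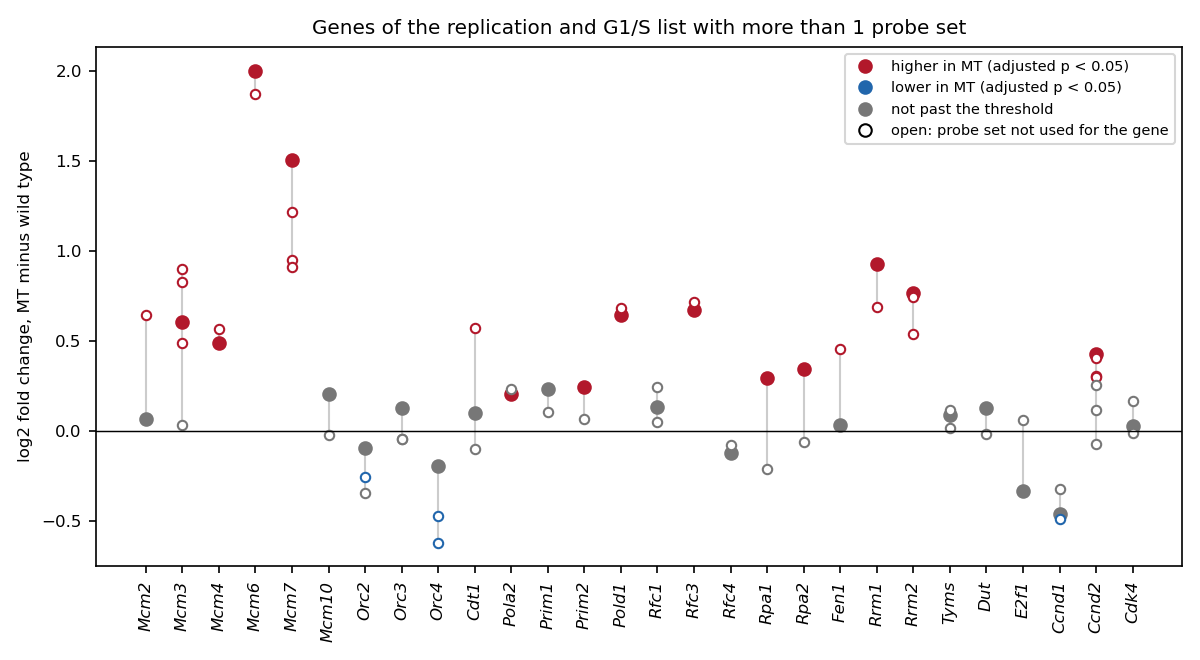
Difference between MT and wild type on the log2 scale for every probe set of the genes with more than 1; filled points are the sets used for the gene, open points the others, and colour marks the call at an adjusted p under 0.05. The sets of Mcm7 run from 0.91 to 1.51 and are all called higher, whereas those of Mcm2 sit at 0.07 and 0.64.

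Further genes of the same processes were taken from named lists. Of 24 measured genes of the fork and origins outside the 50, 12 rose, 5 fell and 7 did not pass, with a median of 0.22. Over all genes 19.7% rose and 21.3% fell, so the share that fell was near that of all genes. Top2a, the topoisomerase that untangles copied DNA, read 5.99, 6.32, 5.93 and 6.16 in wild type and 7.23, 7.22, 7.07 and 7.52 in MT and rose by 1.16 ± 0.11 (adjusted p = 8.78e-06). With only probe sets of the unique type Top2a was at -0.09 (adjusted p = 0.485). Gmnn, the inhibitor of Cdt1, read 5.0, 5.29, 5.30 and 5.34 in wild type and 5.98, 6.39, 6.25 and 6.23 in MT and rose by 0.98 ± 0.10 (adjusted p = 1.85e-05). Chaf1b, of the complex that deposits histones behind the fork, read 4.41, 4.75, 4.54 and 4.55 in wild type and 5.29, 5.53, 5.46 and 5.46 in MT and rose by 0.87 ± 0.08 (adjusted p = 9.87e-06). For these 3 genes all MT arrays lay above all wild-type arrays. Small polymerase subunits and fork factors were among those that fell: Pole4 (-0.71 ± 0.12 (adjusted p = 0.000592)), Pole3 (-0.32 ± 0.07 (adjusted p = 0.00236)) and Pold4 (-0.21 ± 0.06 (adjusted p = 0.018)), with the fork protection factor Tipin (-0.42 ± 0.10 (adjusted p = 0.00573)) and the origin-firing kinase Cdc7 (-0.29 ± 0.07 (adjusted p = 0.00658)). Pole3 was -0.10 (adjusted p = 0.249) when probe sets were averaged, and Pold4 was -0.19 (adjusted p = 0.0587) without MT array 3.

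Of 15 other measured genes of nucleotide supply, 5 rose, 4 fell and 6 did not pass, beside 19.7% and 21.3% of all genes, with a median of -0.09. Dck, which salvages deoxycytidine, read 3.91, 4.00, 4.96 and 4.67 in wild type and 5.54, 5.25, 5.34 and 5.62 in MT and rose by 1.06 ± 0.21 (adjusted p = 0.00177). Rrm2b, the ribonucleotide reductase subunit made outside S phase, read 8.23, 8.09, 8.22 and 8.21 in wild type and 7.52, 7.61, 7.56 and 7.50 in MT and fell, with a difference of -0.64 ± 0.06 (adjusted p = 1.08e-05). Rrm1 and Rrm2 rose and Rrm2b fell, in each case without overlap. Shmt1, of folate metabolism, rose by 0.76 ± 0.09 (adjusted p = 6.21e-05). Impdh1, of guanine nucleotide synthesis, fell (-0.69 ± 0.06 (adjusted p = 6.69e-06)), as did Ppat, of purine synthesis (-0.68 ± 0.08 (adjusted p = 5.13e-05)). But Ppat was 0.02 (adjusted p = 0.912) with only probe sets of the unique type. Tk2, the mitochondrial thymidine kinase, fell (-0.34 ± 0.12 (adjusted p = 0.0388)), and with numbered pairs its adjusted p was 0.0674. Without wild-type array 1 or 4 or MT array 1, 2 or 4 the call of Tk2 was lost (adjusted p 0.0549 to 0.111).

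Among 14 other regulators of G1/S, 6 rose, 4 fell and 4 did not pass, beside the same shares of all genes, with a median of 0.06. Ccna2, the cyclin of S phase, read 5.61, 5.73, 5.37 and 5.26 in wild type and 6.90, 7.04, 7.16 and 7.05 in MT and rose by 1.55 ± 0.10 (adjusted p = 6.7e-07). Cks2, a small partner of cyclin-dependent kinases, read 6.76, 7.16, 7.14 and 6.93 in wild type and 8.30, 8.26, 8.23 and 8.32 in MT and rose by 1.28 ± 0.09 (adjusted p = 9.69e-07). Its close relative Cks1b read 9.93, 9.91, 9.95 and 9.82 in wild type and 9.40, 9.49, 9.42 and 9.34 in MT and fell, with a difference of -0.49 ± 0.06 (adjusted p = 8.41e-05). The groups of both Cks genes were apart, in opposite order. Skp2, which directs degradation of Cdk inhibitors, rose by 0.92 ± 0.12 (adjusted p = 9.57e-05). Cdc25a, the phosphatase that activates Cdk2, read 8.29, 8.53, 8.44 and 8.35 in wild type and 7.67, 7.70, 7.48 and 7.56 in MT and fell, with a difference of -0.80 ± 0.08 (adjusted p = 9.5e-06). Fbxw7, which directs degradation of cyclin E, and the repressor E2f6 also fell, at -0.30 ± 0.07 (adjusted p = 0.00763) and -0.30 ± 0.07 (adjusted p = 0.00629).

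Mitosis genes act after S phase. Of 26 measured, 23 rose, against 19.7% of all genes, and 3 did not pass. The median was 0.96, and 12 rose at least 2-fold, against 2.83% of all genes. The mean level of the mitosis genes ran from 4.85 to 4.96 in wild-type arrays and from 5.90 to 5.99 in MT arrays. Mki67, the antigen of cycling cells, read 5.27, 5.82, 5.11 and 5.57 in wild type and 8.08, 7.82, 7.64 and 7.95 in MT and rose by 2.43 ± 0.15 (adjusted p = 3.33e-07). Birc5, of the chromosomal passenger complex, rose by 2.25 ± 0.14 (adjusted p = 4.81e-07), and Ube2c, which works with the anaphase-promoting complex, by 2.21 ± 0.12 (adjusted p = 1.14e-07). The 50 replication and G1/S genes had 3 rises of at least 2-fold and a median of 0.25; the difference between the lists was not tested.

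**Figure D5:**
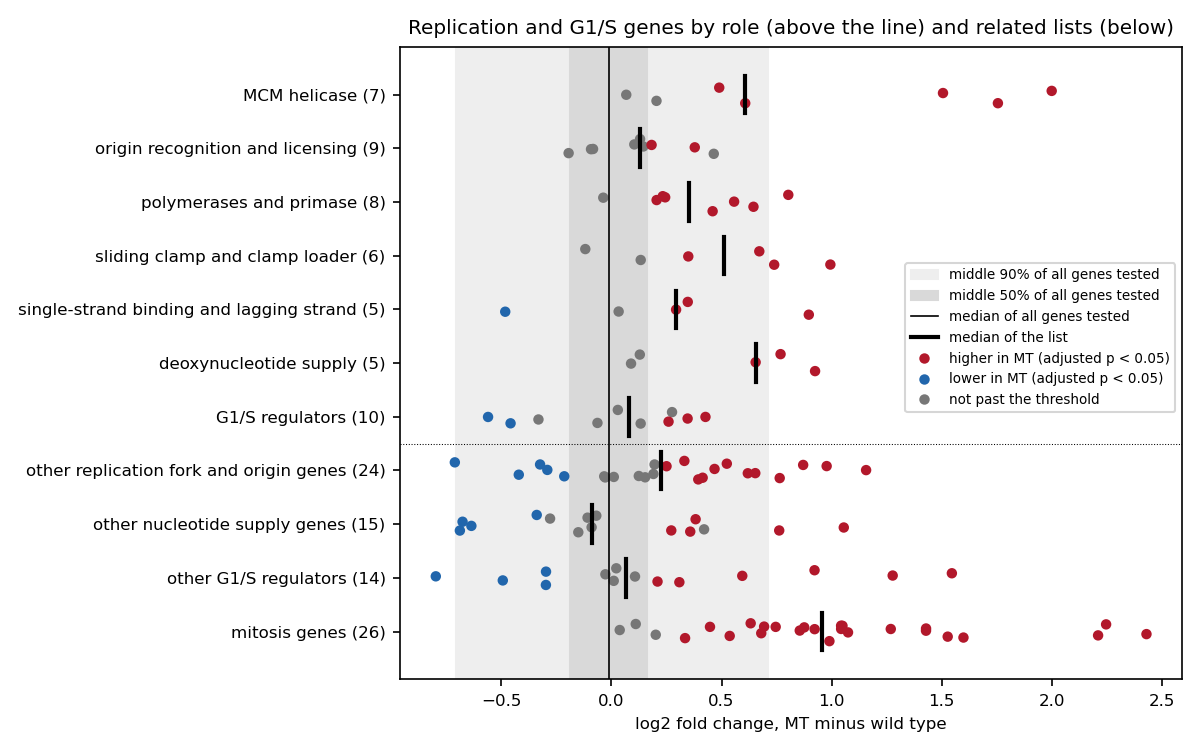
Difference between MT and wild type on the log2 scale for every gene of the role groups and the related lists; points are genes coloured by call, black bars are list medians, and the grey bands hold the middle 50% and 90% of all genes tested. Medians run from 0.08 for the G1/S regulators to 0.65 for deoxynucleotide supply among the 50 genes, and that of the mitosis genes is 0.96.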

How the data were processed

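The authors deposited log2 expression values made with RMA, per the submitters' processing notes (version not given in the sources used here). RMA corrects background, normalizes arrays by quantiles and summarises probes, so levels are comparable between arrays and not between genes. The table held 22690 probe sets with array medians of 6.21 to 6.23, and the number of arrays limits the precision. Of these, 64 were controls, 20380 had 1 gene symbol, 691 several and 1555 none. Each gene was represented by its brightest probe set (mean of all 8 arrays), with no further scaling or filter.

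Groups were compared with limma 3.58.1 (lmFit and eBayes) in R 4.3.3, with two-sided p-values adjusted over 12393 genes. Simulated data used to try the fit had independent arrays and few changed genes, so they do not cover arrays that deviate together. Values by array were given, in each role, for the 3 largest changes past the threshold, every fall and the highest uncalled gene, with further genes chosen after their values were seen. In related lists the 3 largest changes and those against the majority were named. The 50 genes and all lists were chosen with earlier results of these data known. Arrays with the same number in the sample titles deviated together (correlations 0.10 to 0.18 across genes, all over 0.1) and were treated as pairs in an alternative fit; no label states what they share. Bacterial control probe sets, 12 in number, gave the background. Alternatives were another prior, array weights, probe set rules, a median filter, renewed scaling, stricter thresholds, each array left out, and, added after seeing the data, wild-type array 4 and MT array 2 left out together. Python 3.11.15, pandas 2.3.3 and matplotlib 3.10.9 searched RefSeq promoter windows and drew figures.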

Additional observations from a re-analysis of the deposited data

Results flagged for a closer look

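In the MT group 3 genes had 1 array far from the others, judged by the gap to the nearest array as a share of the group's range, against Dixon's 95% critical value for 4 arrays. Orc6 had a share of 0.918, with MT array 1 at 6.41 below the other MT arrays at 6.54 to 6.55. Mcm7 had a share of 0.866, with MT array 4 at 9.69 above the others at 9.49 to 9.52. Rrm2 had a share of 0.836, with MT array 3 at 8.01 just below the others at 8.04 to 8.05. These were 3 of 100 checks, 50 genes in each of 2 groups, and chance flags about 1 in 20.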

How the results depend on the processing

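Of the 27 rises, 19 kept their call under each alternative fit that gave them a value, stricter thresholds apart. Probe sets of the unique type gave a value for 24 of the 27 and the median filter for 12. Orc6, Cdc45, Pola2, Prim1, Prim2, Rpa1, Rpa2 and Cdk2 lost their call under at least 1 alternative fit. Of the 3 falls, those of Rpa3 and Ccnd3 were kept. Without each array in turn, 22 to 25 of the 50 genes rose and 2 to 3 fell, and of the related genes 43 to 47 rose and 12 to 14 fell, against 46 and 13. With genes below the median level left out, 12 of the 50 and 11 related genes rose, since 26 of the 50 were no longer tested. Against a minimum change of 0.5 (limma treat), 8 of the 50 rose and 0 fell (0 also at an unadjusted p under 0.05), and 20 related genes rose and 1 fell. With the replicate block 5 of the 50 fell, as did 5 with probe sets averaged, and it moved no other count by over 1.5 times. Without wild-type array 4 and MT array 2, 21 rose and 2 fell. The shares of all genes were not counted under these alternatives, so these counts have no such share beside them.

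Some differences turned sign, in each case but Rpa1, Top2a and Ppat for genes that had not passed the test. With only probe sets of the unique type these were Mcm10 (-0.023), Rpa1 (-0.21), Dut (-0.012), E2f1 (0.065), Cdk4 (-0.0099), Top2a (-0.085) and Ppat (0.015). Without each array in turn, Fen1 ran from -0.0038 (wild-type array 4 out) to 0.072, Tyms from -0.012 (MT array 1 out) to 0.14 and Cdk4 from -0.0044 (wild-type array 3 out) to 0.054. The cause was not tested. Renewed scaling moved the median of all genes by less than 0.1. Genes near the bacterial controls (Orc1, Cdc6, Tyms and Ccne2) are limited by signal over background.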

Other observations

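The spread between arrays was larger in wild type than in MT for 36 of the 50 genes (72.0%), against 67.3% of all genes tested. Over the 50 genes the median SD was 0.12 in wild type and 0.09 in MT on the log2 scale. Mcm6 (SD 0.67 and 0.14) and Ccnd1 (0.43 and 0.05) had wide wild-type spreads, in which the high wild-type arrays were 2 and 4 for Mcm6 and 4 and 1 for Ccnd1.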
